A study of Paxillus involutus ATCC 200175 with 12 samples.

Results

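The transcript response of Paxillus involutus to ammonium was examined in mycelium that had organic matter but no added glucose. Arrays titled OM+N were set against arrays titled OM, 3 of each, which made 6 of the 12 arrays of the series. Paxillus involutus is an ectomycorrhizal fungus: it lives in symbiosis with tree roots, receives sugar from the tree, and takes up soil nitrogen that it partly shares with the host. In OM, the strain ATCC 200175 was grown on glass beads without a host for 9 days on a minimal medium, starved of nitrogen for 24 h and then given a hot-water extract of maize compost for 7 days; the extract had been filtered at 0.2 um and freed of compounds under 10 kDa. In OM+N the cultures had the same history and the same extract, and ammonium was added. OM+G received the extract with glucose, and OM+N+G the extract with glucose and ammonium, 3 arrays each. How much ammonium or glucose was added is not stated in the labels. According to the design text the RNA came from 3 separate cultures, taken to mean 3 for each group. All arrays lay on 1 slide, with OM on subarrays 1 to 3 and OM+N on subarrays 4 to 6. OM+G lay on subarrays 7 to 9 and OM+N+G on subarrays 10 to 12. Ammonium and position on the slide therefore cannot be told apart, either without glucose or with it.

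Fungi generally use ammonium in preference to nitrogen bound in proteins and other polymers. When ammonium is plentiful, many species lower the transcripts of transporters, proteases and other enzymes that serve poorer nitrogen sources, a control known from yeasts and moulds as nitrogen catabolite repression. Assimilating ammonium into amino acids also takes carbon skeletons, so carbon supply can matter to how a mycelium handles nitrogen. None of this could be read gene by gene here. The 12214 features of the array are named only by a running number, the files list no gene beside them, and 0 of the names were found among the genes of the reference table for this species. No gene function and no sequence is therefore given, and each feature is described by its level, its change and its behaviour across arrays.

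Levels are the deposited log2 RMA values. A control of random sequence had levels from 3.66 to 3.80 in the 12 arrays, and the medians of the 6 arrays without glucose lay between 11.76 and 11.78. RMA in its usual form makes the distributions of arrays alike, so that every change is relative to the other features. Before any feature is named, the arrays themselves need description, because OM replicate 2 and OM+N replicate 1 stood apart. The root mean square difference over all features was 0.373 (log2) between OM replicate 2 and OM+N replicate 1, the highest of the 15 pairs among these 6 arrays. The 9 pairs of an OM and an OM+N array differed by 0.150 to 0.373, the 3 pairs within OM by 0.144 to 0.245, and the 3 pairs within OM+N by 0.148 to 0.234. Arrays of different treatment were thus not always further apart than replicates. Without OM replicate 2 and OM+N replicate 1, the remaining pairs differed by 0.144 within OM, by 0.148 within OM+N, and by 0.150 to 0.173 between the treatments. With glucose, the 9 pairs across the ammonium treatments differed by 0.190 to 0.260, and all pairs within OM+G (0.114 to 0.165) and within OM+N+G (0.153 to 0.184) differed by less.

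**Figure D1:**
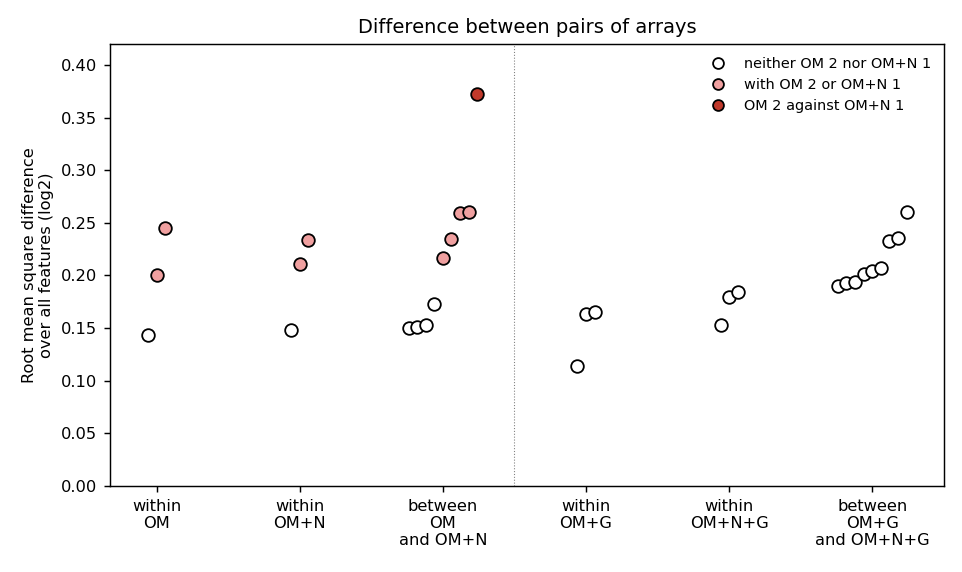
Each point is 1 pair of arrays, placed by the root mean square of their difference over 12214 features (log2), within and between groups; colour marks pairs that hold OM replicate 2 or OM+N replicate 1. Without glucose, pairs across treatments (0.150 to 0.373) overlap pairs within a treatment, and with glucose those across treatments (0.190 to 0.260) lie above all pairs within.

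Few features passed the threshold for a change between OM and OM+N. At a Benjamini-Hochberg adjusted p under 0.05 over all features, limma fitted to all 12 arrays called 41 features (0.336%): 11 rose (0.0901%) and 30 fell (0.246%). Without adjustment, limma gave a p under 0.05 for 1851 features (15.2%). Some p-values this small arise by chance even where nothing changed. The number also hung on the arrays that stood apart. It fell to 874 once OM replicate 2 was dropped, to 918 when OM+N replicate 1 was the array dropped, and to 720 with neither of them in the fit. Dropping any other single array gave 1528 to 2923. Neither 41 nor 1851 is therefore a count of the features that changed. The rises ranged from 1.31-fold to 2.13-fold, with a median of 1.44-fold. The falls ranged from 1.35-fold to 2.52-fold, with a median of 1.73-fold. Only 1 called feature rose by at least 1 on the log2 scale, and 8 fell by as much. For all 41 called features the OM and OM+N arrays did not overlap, as held for 15.9% of all features. A further fit took these 6 arrays alone, so that its estimate of spread used no array with glucose. The deposited RMA values were not recomputed for it. That fit called 3 features: paxillus_11336, which rose, and paxillus_8006 and paxillus_13579, which fell by 1.25 and 1.21 on the log2 scale (limma adjusted p = 0.00833 and 0.0435 in that fit). The last pair was named after their values were seen, because so few were called.

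For most features of the array, the change in relative level was bounded within a small range. For 11086 features (90.8%) the whole 95% interval of the change, not adjusted for the number of features, lay within 0.5 of 0 on the log2 scale, and for 12097 (99%) it lay within 1. With the 6 arrays alone the first number was 11070. The median size of the change was 0.09 (log2) over all features, the 90th percentile 0.22 and the 99th percentile 0.57, against a median SE of 0.08. In the presence of glucose the corresponding sizes were 0.08, 0.23 and 0.60, close to those without it. The numbers of called features were far apart nonetheless, at 41 (0.336%) without glucose and 597 (4.89%) with it; this difference between the counts was not tested.

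Replicates spread more without glucose, and the called features more than most. The median SD over all features was 0.10 (log2, n = 3) in OM and 0.08 in OM+N, against 0.06 in OM+G arrays and 0.08 in OM+N+G arrays. Over the 41 called features it was 0.16 in OM and 0.18 in OM+N, against 0.06 and 0.08 in the groups with glucose. A spread shared by all 4 groups therefore understates the spread of these features in OM and OM+N. Their median SE was 0.10 in the fit to all arrays and 0.11 in the fit to the 6 arrays, which also had only 4 residual degrees of freedom. All 41 had an unadjusted p of at most 0.00167 by limma in the 6 arrays alone, and 13 had an adjusted p under 0.1 there. Of all features, 1139 had an unadjusted p under 0.05 in that fit. The 41 were chosen by the same differences between these arrays, so their small p-values there are not separate evidence.

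The largest rise was that of paxillus_11336. It lay at 12.75, 12.33 and 12.59 (log2) in OM replicates 1 to 3 and at 13.55, 13.71 and 13.68 in OM+N replicates 1 to 3. Every OM+N array was above every OM array by at least the whole spread within either group. This was a 2.13-fold rise (log2 1.09, SE 0.09, 95% interval 0.90 to 1.29, limma adjusted p = 0.000129). With glucose it stood at 12.32, 12.38 and 12.39 without ammonium (OM+G) and at 13.59, 13.54 and 13.61 with it (OM+N+G). The level with ammonium was 2.32-fold higher there (log2 1.21, SE 0.09, limma adjusted p = 9.47e-06). Its level was thus higher in the arrays with ammonium both without and with glucose. The difference between its log2 changes was 0.12 (95% interval -0.15 to 0.39, limma adjusted p = 0.677).

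The next largest rise was that of paxillus_285, which was more scattered. It lay at 10.98, 11.21 and 11.03 (log2) in OM and at 11.52, 12.25 and 12.17 in OM+N. OM+N replicate 1 was well below the other OM+N arrays, yet above all OM arrays. OM+N exceeded OM 1.87-fold (log2 0.91, SE 0.15, limma adjusted p = 0.0212). It missed the threshold when OM replicate 1 was left out (limma adjusted p = 0.112), when OM+N replicate 3 was left out (0.0994) and in the 6 arrays alone (0.219). Levels were higher with glucose, at 12.25, 12.50 and 12.45 in OM+G and 13.39, 13.41 and 13.28 in OM+N+G, and the ammonium change there was 0.96 (log2; SE 0.15, limma adjusted p = 0.00187).

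The 2 largest falls were those of paxillus_6442 and paxillus_6443, which follow each other in the numbering. paxillus_6442 lay at 13.03, 13.24 and 12.78 (log2) in OM and at 11.49, 12.04 and 11.54 in OM+N. paxillus_6443 lay at 13.13, 13.32 and 12.94 in OM and at 11.53, 12.26 and 11.79 in OM+N. Both were highest in OM replicate 2 within OM and in OM+N replicate 2 within OM+N, and neither overlapped between the groups. The change of paxillus_6442 was -1.33 (log2; SE 0.14, limma adjusted p = 0.000763), a 2.52-fold fall. That of paxillus_6443 was -1.27 (log2; SE 0.15, limma adjusted p = 0.00236), a 2.41-fold fall. In the 6 arrays alone the adjusted p by limma was 0.052 and 0.0703. In the presence of glucose paxillus_6442 went from 13.31, 13.38 and 13.28 in OM+G to 11.16, 11.34 and 11.33 in OM+N+G, a 4.13-fold fall. paxillus_6443 went from 13.47, 13.49 and 13.48 to 11.50, 11.52 and 11.21, a 4.20-fold fall. The interaction, a test of the difference between the ammonium changes with and without glucose, did not pass for either: it was -0.72 (95% interval -1.14 to -0.30, limma adjusted p = 0.157) and -0.80 (-1.27 to -0.33, 0.156).

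**Figure D2:**
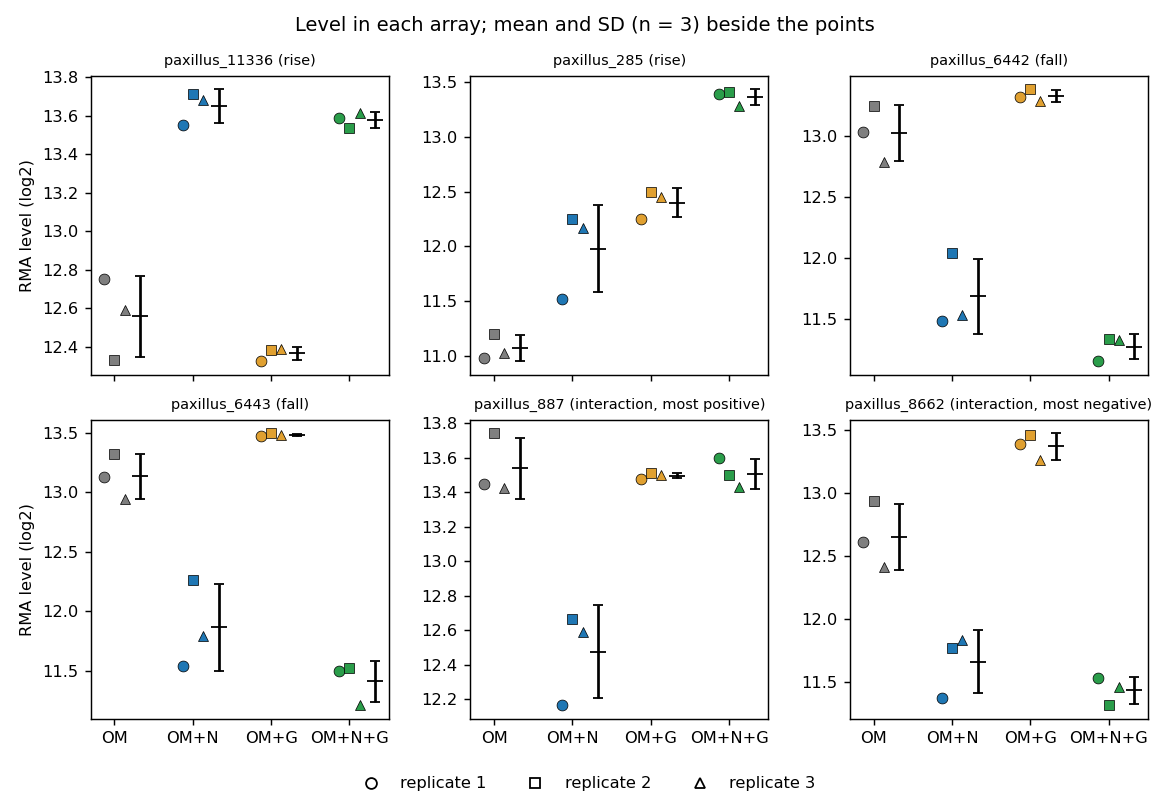
Level (log2 RMA) of 6 named features in each of the 12 arrays; marker shapes stand for replicates, and the bar beside each group is the mean and SD (n = 3). paxillus_11336 and paxillus_285 are higher in every OM+N than in every OM array, the other 4 are lower in every one, and paxillus_887 is low in OM+N only, with OM, OM+G and OM+N+G arrays between 13.42 and 13.74.

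The remaining called features were smaller changes of the same kind. After paxillus_11336 and paxillus_285 the rises lay between 0.38 and 0.82 on the log2 scale. After paxillus_6442 and paxillus_6443 the falls lay between -1.25 and -0.44. The OM means of the falls had a median of 13.12 (log2) and a lowest value of 11.54, and those of the rises a median of 11.70 and a lowest value of 10.18. These are signal levels of different probes, which also depend on the probes themselves, so they do not compare transcript abundance between features. When the 11499 features whose mean level was 6 or more were divided by brightness into 4 equal parts, the brightest part held 24 of the 30 falls and 4 of the 11 rises. None of the 715 features with a mean level under 6 was called. Of all features 0.336% were, so few calls would be expected among them. By limma, a further 9 features, all lower in OM+N, changed by -1.35 to -1.02 (log2) without being called (adjusted p from 0.0743 to 0.347). Their median SD was 0.82 in OM+N and 0.32 in OM, and without OM replicate 2 and OM+N replicate 1 their median change was -0.52 (from -0.64 to -0.12).

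**Figure D3:**
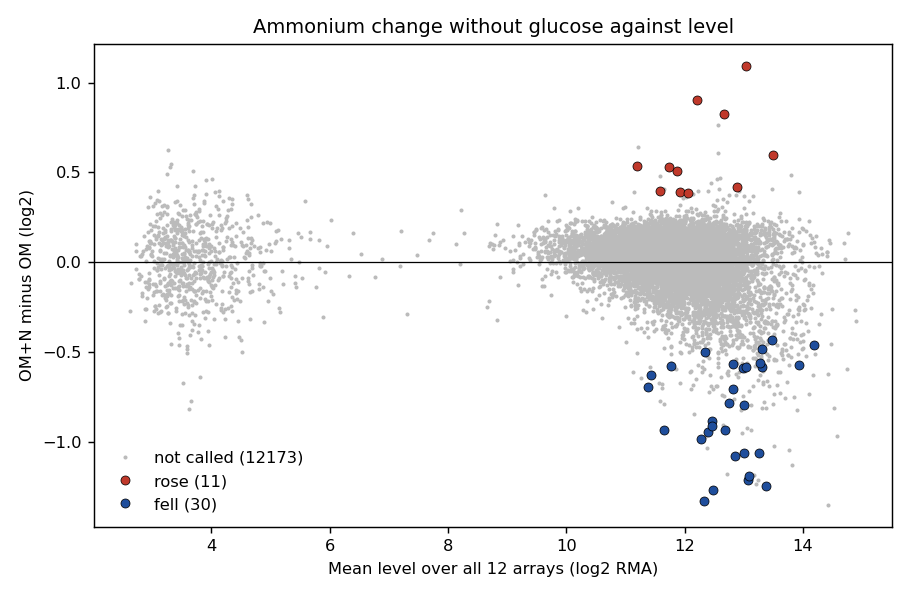
Change from OM to OM+N (log2) of each of the 12214 features against its mean level over all 12 arrays (log2 RMA); the 11 rises and 30 falls called are coloured. Called features lie at mean levels between 11.20 and 14.18, with most falls on the bright side. The 715 features with a mean level under 6, at the left, include no call, against 0.336% called of all features.

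Most called features fell, whereas most features of the array were slightly higher in OM+N. Over all features 61.3% were higher in OM+N, with a median change of 0.03 (log2), and of the features without overlap 1170 were higher and 771 lower. The shift depended on brightness. Among the dimmest of the 4 parts just described, 75.4% were higher in OM+N (median change 0.06), and among the brightest 45.8% (median -0.02). Without OM replicate 2 and OM+N replicate 1, these shares were 48.0% and 50.5%, and the medians of all 4 parts lay between -0.004 and 0.003. In the comparison with glucose, 50.3% of the dimmest part and 46.8% of the brightest part were higher with ammonium.

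The falling features had much of their order of arrays in common, more so in OM than in OM+N. OM replicate 2 was the highest OM array in 29 of the 30 falls, against 35.0% of all features. OM replicate 3 was the lowest in 26, against 30.6%. OM+N replicate 2 was the highest OM+N array in 26 falls, against 26.3% of all features, and OM+N replicate 1 the lowest in 22, against 26.4%. OM+N replicate 3 was the lowest in the other 8, against 31% of all features, and the highest in 4, against 22.8%. Relative to each feature's OM mean, the median of the falls was -0.03, 0.18 and -0.16 (log2) in OM replicates 1 to 3 and -0.94, -0.61 and -0.81 in OM+N replicates 1 to 3. The order differed less from feature to feature in OM and OM+N than with glucose, where no array was highest or lowest in more than 13 of the 30. The calls rest on these same arrays, so the order is given as a description. The 11 rises shared no such order in OM, where each array was the highest in 3 or 4 of them. In OM+N, replicate 1 was the lowest in 7 rises and replicate 2 the highest in 6, against 26.4% and 26.3% of all features. In OM+G, replicate 1 was the lowest in 9 rises, against 34.2% of all features.

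**Figure D4:**
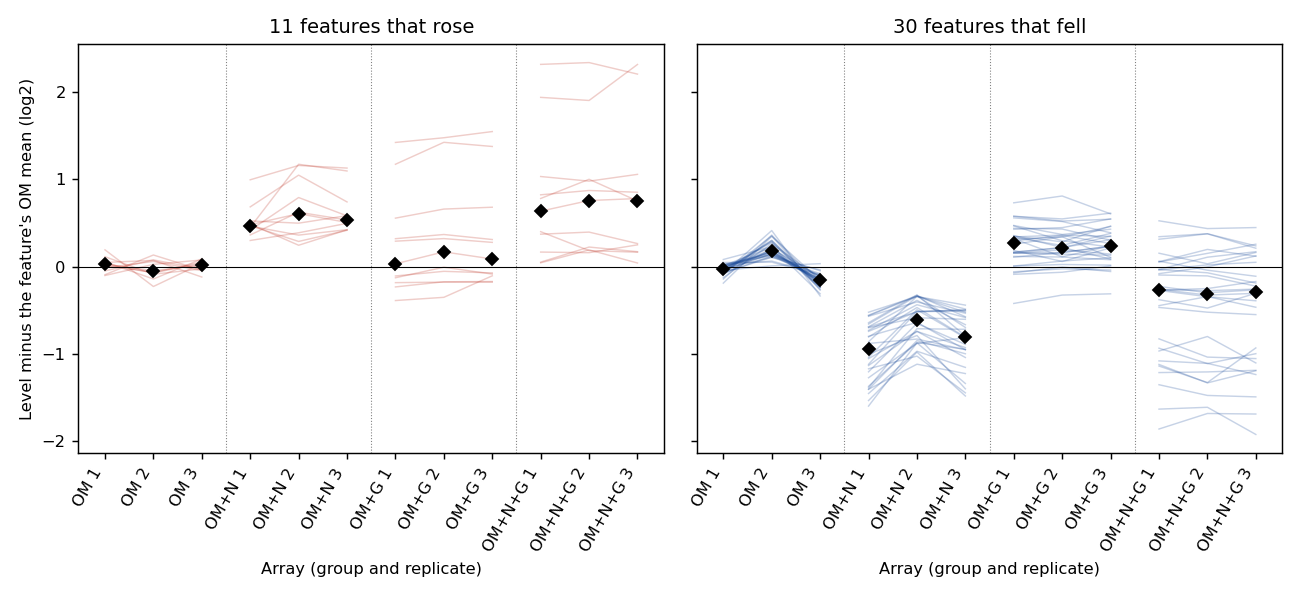
Level of each called feature minus its own OM mean (log2) in the 12 arrays, as thin lines joined within a group, with the median over features as a black diamond; the 11 rises are on the left and the 30 falls on the right. The medians of the falls are 0.18 in OM replicate 2 and -0.94 in OM+N replicate 1; lines of single features cross within OM+N, where replicate 3 is the lowest in 8 falls.

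Leaving out the arrays that stood apart changed the balance of the calls. Without OM replicate 2 and OM+N replicate 1 together, 53 features were called, 29 upward and 24 downward, so that falls made up 45.3% of the calls in place of 73.2%. Of the original calls, 27 remained, 7 rises and 20 falls. The 30 falls had a median change of -0.79 (log2) with all arrays and -0.56 without these arrays, and the 11 rises of 0.53 in both. OM replicate 2 was the highest OM array in 29 falls and OM+N replicate 1 the lowest OM+N array in 22. Leaving these arrays out therefore makes most falls smaller by itself. The 10 falls that were lost had adjusted p from 0.0566 to 0.25 by limma. Among the 26 features called only then, 22 rose, and their median change was 0.70 without the arrays and 0.38 with them. They were selected in the fit without the arrays, which by itself favours a larger change there. The largest rise was then that of paxillus_285, with 1.20 (log2), ahead of paxillus_11336 with 1.03. The direction of all 41 features was the same in every alternative that was run. Because their OM and OM+N arrays did not overlap, leaving out arrays could not have reversed it.

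Single arrays also moved the count. Within OM it was 21 without replicate 1, 28 without replicate 2 and 132 without replicate 3. Within OM+N it was 39, 96 and 27 in the same order of replicates. In all 12 fits that left out 1 array, 19 of the 41 features were called, 3 rises and 16 falls, paxillus_11336, paxillus_6442 and paxillus_6443 among them.

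The same comparison in the presence of glucose shares no array with this one and shows the same features at another carbon supply. Of the 11 rises, 10 were also higher with ammonium when glucose was present and 6 were called there, against 2.96% of all features called as rises. Of the 30 falls, 27 were also lower and 19 were called, against 1.92% of all features called as falls. No feature was called in opposite directions. Over all features, 54.5% had the same sign in both comparisons. The 41 features had a median change of 0.42 (rises) and -0.50 (falls) on the log2 scale with glucose, against a median of -0.01 over all features. Both comparisons use each feature's single estimate of spread, which ties their calls together.

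**Figure D5:**
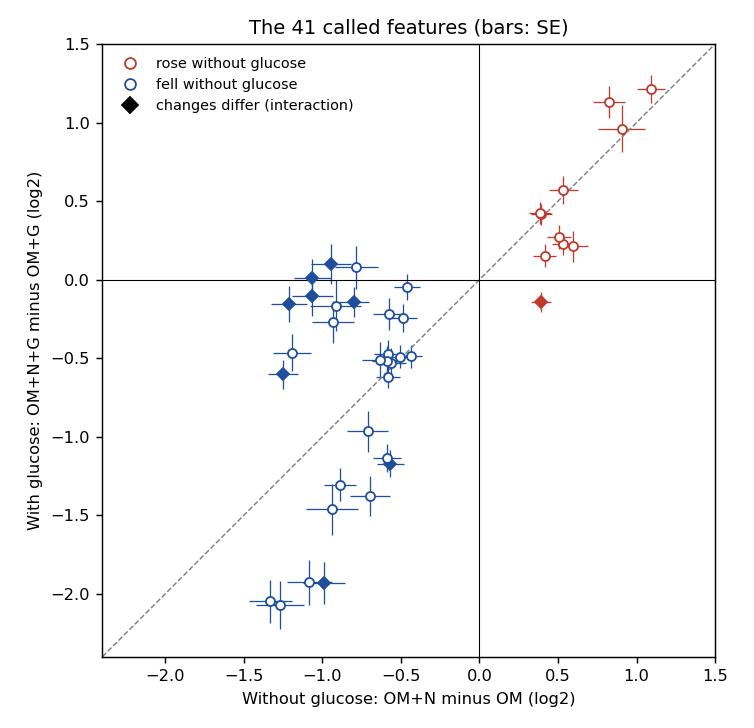
Ammonium change with glucose (OM+N+G minus OM+G) against that without (OM+N minus OM), both log2, for the 41 features called without glucose; bars are SE, the dashed line marks equal changes, and filled diamonds mark the 9 features whose changes differ by the interaction test. Of the 11 rises, 6 are larger with glucose and 1 is below 0 there; 12 of the 30 falls are larger in size with glucose, and 11 have changes between -0.27 and 0.10 there.

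The falls are described here in parts, split by whether they were also called with glucose. The split itself sets their changes with glucose apart, so it does not show that the falls form distinct kinds. The 19 that were also called with glucose had a median change of -0.69 (log2) without it and of -0.97 with it, the latter from -2.07 to -0.46. The median of their group means was 13.11 in OM and 12.25 in OM+N, then 13.47 with glucose alone and 12.15 with both nutrients. The other 11 had a median change of -0.92 without glucose, but their changes with glucose lay between -0.27 and 0.10. The median of their group means was 13.20 in OM and 12.14 in OM+N, then 13.39 with glucose alone and 13.29 with both nutrients. These 11 were thus low in OM+N and higher in the other 3 groups by these medians, although missing the threshold with glucose does not show an absence of change there. For 21 of the 30 falls OM+N had the lowest of the 4 group means, and for 9 OM+N+G had it.

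The interaction passed for 9 of the 41 features, against 0.737% of all features. In 6 falls the ammonium change was more positive with glucose (0.377% of all features), and 5 of these were among the 11 falls not called with glucose. In 2 falls and 1 rise it was more negative with glucose (0.36% of all features). The features were chosen by a change that enters this difference, which by itself draws the difference of a fall upward and that of a rise downward, so no share is read from the 41; the adjusted p-values are over all features. The count was 2 without OM+G replicate 1 or OM+G replicate 2, 3 without OM replicate 1, OM+N replicate 3 or OM+N+G replicate 1, 4 without any of the remaining arrays with glucose, 15 without OM+N replicate 2, and 21 with OM replicate 2 and OM+N replicate 1 both left out.

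The most positive difference was that of paxillus_887. It lay at 13.45, 13.74 and 13.42 (log2) in OM, at 12.17, 12.67 and 12.59 in OM+N. With glucose it lay at 13.48, 13.51 and 13.50 in OM+G, and at 13.60, 13.50 and 13.43 when ammonium was present too (OM+N+G). Only the OM+N arrays were low, and they overlapped no other group. paxillus_887 was 2.09-fold lower in OM+N than in OM (log2 -1.06, SE 0.12, limma adjusted p = 0.00142), and with glucose the change was 0.01 (95% interval -0.24 to 0.27). The difference of 1.07 (SE 0.17, limma adjusted p = 0.0123) passed in all 21 alternatives that could test it.

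The most negative difference was that of paxillus_8662. It lay at 12.61, 12.93 and 12.41 (log2) in OM, at 11.38, 11.77 and 11.84 in OM+N. With glucose it lay at 13.38, 13.46 and 13.26 in OM+G, and at 11.53, 11.32 and 11.46 when ammonium was present too (OM+N+G). The fall was 1.98-fold without glucose (log2 -0.99, SE 0.13, limma adjusted p = 0.00493) and 3.81-fold with it (log2 -1.93). It ended at similar levels with ammonium, and OM+G lay above OM. The difference of -0.94 (SE 0.19, limma adjusted p = 0.0444) passed in only 9 of 21 alternatives, with adjusted p between 0.000921 and 0.171. It missed the threshold without each single array except OM replicate 2 and OM+N replicate 1, with the replicate number as a block (limma adjusted p = 0.0655) and after quantile normalization (0.171).

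Features that followed each other in the numbering appeared together among the calls. The 41 features held 4 pairs of consecutive numbers, 8 features in all, and the members of each pair moved the same way: 1 pair rose and 3 fell. Of all 11427 consecutive pairs on the array, 59.3% had the same sign. Most of those pairs hold features that were not called, so this share is not a like measure for pairs of called features. How often consecutive numbers would occur among 41 features was not tested. What the numbering reflects is not given in the sources used here, and probes of similar sequence could not be checked, so the members of a pair may not be independent measurements.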

How the data were processed

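Single-colour NimbleGen arrays were hybridised with Cy3-labelled double-stranded cDNA from total RNA. The deposited log2 values are RMA values, per the submitters' processing notes; the labels name neither software nor version, and log2 was read from their range. RMA had combined 10 probes into each of 12203 features, and fewer into 11. The table of the series held the same values as the array files (largest difference 0). The random-sequence control was left out. A further deposited column, named as an error of the value, was not used.

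The 12 arrays were modelled together with 1 mean for each group in limma 3.58.1 under R 4.3.3 (lmFit, contrasts.fit, eBayes with default settings), with 8 residual and 4.72 prior degrees of freedom. Tests were two-sided, with Benjamini-Hochberg adjustment over all 12214 features, a threshold of 0.05, no fold minimum and no filter. SE is limma's moderated standard error. The number of arrays limits the precision. Named features were the 2 largest rises and 2 largest falls among called features without overlap, and the called features with the most positive and the most negative interaction. The comparison, this rule and the alternatives were chosen with earlier results of these data known. The fit was tested on simulated data with independent noise and the same spread for a feature in all groups. That test therefore does not cover unequal spread between groups or arrays that stand apart, as described above.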

Additional observations from a re-analysis of the deposited data

Results flagged for a closer look

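The ammonium change differed between mycelium with and without glucose, by the interaction test, in 9 of the 41 called features. Those with the most positive and the most negative difference were paxillus_887 (1.07, log2) and paxillus_8662 (-0.94). Which features are called enters this test, as stated above, and the cause of the differences was not tested.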

How the results depend on the processing

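The 41 calls became 59 after cyclic loess, 58 after quantile normalization, 45 after scaling to the 75th percentile and 41 with the values of the series table, with falls between 67.8% and 73.3% of them. They became 81 without the dimmest 25% of features, 72 with an intensity trend and robust moderation, 146 with array weights and 3 with the OM and OM+N arrays only; single arrays left out gave 21 to 132. In the 8 alternatives that kept all 12 arrays, the replicate block included, at least 39 of the 41 features were called again. Calls shared with the comparison in the presence of glucose numbered 25, 56 with array weights and 12 to 37 with single arrays left out. Calls that also passed the interaction numbered 9, but 14 after cyclic loess, 15 with trend and robust moderation, 45 with array weights, 21 without OM replicate 2 and OM+N replicate 1 together, and 2 to 15 with single arrays left out. The features bounded within 0.5 of 0 numbered 8481 without the dimmest 25%, where fewer were tested, and 10605 to 11445 otherwise. The cause of these shifts was not tested. The replicate block gave 47 calls and did not end the call of OM+N minus OM for any named feature. Deviations of same-numbered OM and OM+N arrays correlated across features with r of 0.19, 0.43 and -0.20, so the numbers were not taken as pairs. Named features with an adjusted p over 0.05 by limma in the 6 arrays alone, besides those given above, were paxillus_887 (0.0703) and paxillus_8662 (0.116).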
